A study of Triticum aestivum with 12 samples.

Results

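Developing grain was compared with the flag leaf of the same plant line, the bread wheat (Triticum aestivum) RNAi line E82, at 20 days after anthesis (DAA). The members are the 6 E82 libraries of the 12 in the series, 3 from grain and 3 from flag leaf, chosen by their labels, and, of 107892 genes, the 64737 with a CPM (counts per library total) above 1 when added over those 6. E82 descends from BW208, the wild type (WT) of the other 6 libraries. Both E82 tissues carry the same hairpin constructs against ω-, α- and γ-gliadin genes, but these are expressed from promoters specific to the endosperm, a tissue of the grain, so that tissue and any effect of the RNAi cannot be told apart in this comparison. E82 is a single transgenic line, selfed over generations and grown in a greenhouse, and each group of 3 libraries stands for 3 plants of it, so that the p-values measure the spread between these plants. The study took seeds and flag leaf from 3 plants of each line, so that grain and leaf may come from the same plants. The main test did not pair them and treated the 6 libraries as independent. Grain RNA went through an additional first extraction step that leaf RNA did not, and tissue and extraction cannot be told apart here.

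The grain is the sink of a filling wheat plant and the flag leaf is its main source. Sucrose made in the leaf is loaded into the phloem, unloaded in the grain through sugar exporters (SWEET proteins), cell wall invertase and sucrose symporters, and turned into starch in the endosperm. Nitrogen follows as amino acids, freed in the leaf by proteases and carried by amino acid permeases, and is laid down in the grain as storage protein.

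The storage globulin Glo3 stands for the grain and the sucrose exporter TaSWEET13 for the leaf among the genes examined. The study designed qPCR primer pairs for both, which are shown here because they mark transcripts that were abundant in one tissue and nearly absent from the other; none of their bases is set in capitals. The Glo3 pair is listed for TraesCS4A02G296100 and TraesCS4A02G296000 on chromosome 4A, and the TaSWEET13 pair for TraesCS6B02G421800 on 6B and TraesCS6D02G367400 on 6D.
Glo3 primer 1: atcgccaagattctccacac
Glo3 primer 2: ggacgatggagatggacttc
TaSWEET13 primer 1: cgagtcatcaagaccaagagtg
TaSWEET13 primer 2: aggccgtagaggaaccagac

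Total estimated counts ran from 31716495 to 44826804 in E82 grain and from 55529286 to 59921014 in E82 leaf, so that the leaf was read more deeply. Between 43800 and 44072 genes reached 1 TPM, a level scaled by transcript length and depth, in grain, and between 37150 and 37726 in leaf. Correlations between libraries ran from 0.96 to 0.97 within grain, from 0.98 to 0.99 within leaf, and from 0.67 to 0.69 between the tissues. The tissue labels were checked against marker lists. TaFUSCA3, a B3 transcription factor (TF) of seed maturation, summed to between 31.1 and 56.3 TPM over its 3 genes in grain and to at most 0.405 TPM in leaf, and the leaf markers GBSSII and GLK1 summed to between 65 and 89.9 TPM in leaf and to at most 2.18 TPM in grain. The endosperm and storage list was less clear. Its 17 genes summed to between 2976 and 3150 TPM in grain and to at most 2.94 TPM in leaf, but nearly all of this was Glo3. Without Glo3 its 15 genes summed to between 23.4 and 29.1 TPM in grain, 11 of them had a grain mean under 1 TPM, and both genes of the ADP-glucose transporter OsBT1-1 and the endosperm regulator TaNAC019-B had no read in any E82 grain library. The list left out the waxy genes of granule-bound starch synthase on 7A and 7D, which were called higher in grain. Their means were 6.7 and 6.68 TPM in grain and 0.00761 and 0 TPM in leaf. The same 15 genes summed to between 60.7 and 616 TPM in the 3 WT grain libraries. The study had found most of them lower in E82 grain than in WT grain in these same libraries, so that nothing is read from this difference. In tissue RNA of this kind, fewer cells of a type and less RNA per cell cannot be told apart.

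A gene was called with an adjusted p under 0.05 in edgeR's quasi-likelihood test (Benjamini-Hochberg over all 64737 genes), and differences are log2 fold changes (log2FC), grain minus leaf. Expression was higher in grain for 17593 genes (27.2%) and higher in leaf for 15025 (23.2%). With all 12 libraries sharing one spread 12227 and 7991 genes were called, and with the replicate number as a block 13925 and 12673. A fitted log2FC past 5 was found for 7031 grain genes and 4196 leaf genes. Of all tested genes 6891 had no read in leaf and 2687 none in grain. The fitted difference of such genes depends on the prior count, so that these numbers are no measure of size for them. Such a gene could pass the filter only through the tissue that had its reads, so that its side is not read as a result. At least 10 counts in every library of one tissue and none in any library of the other were found for 4524 genes in grain and 2181 in leaf. The genes higher in grain held between 70 and 70.9% of the listed TPM of the grain libraries and between 9.18 and 10.9% of that of the leaf libraries, and the genes higher in leaf held between 72 and 75.9% in leaf and between 8.85 and 9.69% in grain.

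Because each tissue spends its reads on different genes, the scaling between them matters. TMM scaling factors ran from 1.216 to 1.278 in grain and from 0.7698 to 0.8639 in leaf. With these factors 53.9% of the called genes were higher in grain, and with library totals alone 69.4%. The median log2FC of all tested genes was 0.24 with TMM and 0.85 with library totals, and the median of a list is therefore set beside 0.24 throughout.

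**Figure D1:**
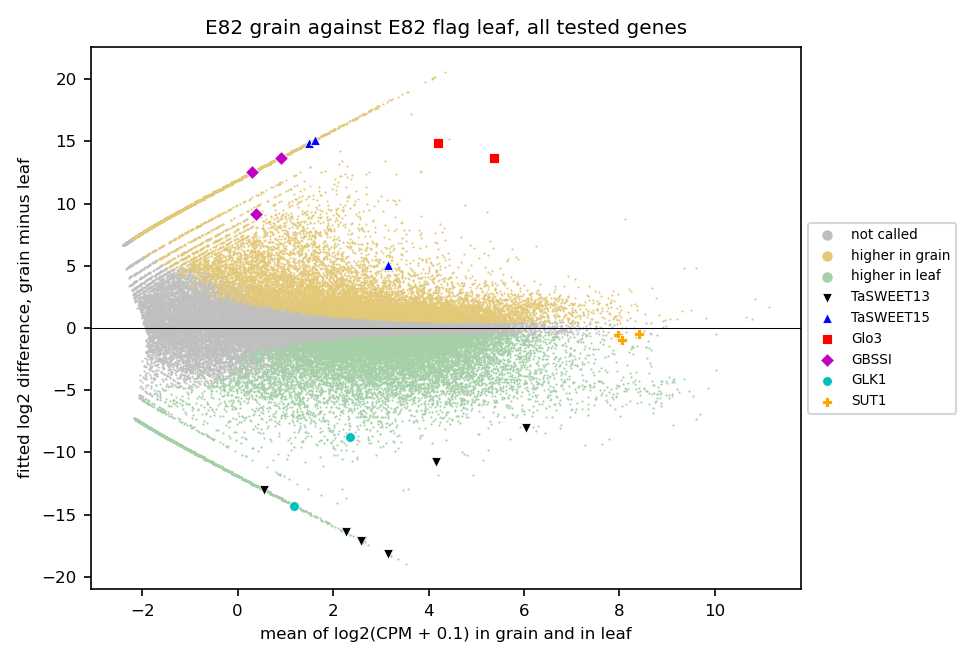
Fitted log2 difference (grain minus leaf) of each of the 64737 tested genes against its mean level, the average of log2(CPM + 0.1) in the E82 grain and E82 leaf libraries. The TaSWEET13 genes lie far below 0, Glo3 and TaSWEET15 far above it and the 3 SUT1 genes near 0; the straight edges are genes with no read in one tissue, whose fitted difference depends on the prior count.

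The shares called were close to each other among the 3 subgenomes of hexaploid wheat. Of the tested genes of the A, B and D subgenomes, 27%, 26.4% and 28.1% were higher in grain, and 23.1%, 22.9% and 23.4% were higher in leaf. Between single chromosomes the share higher in grain ran from 23.8% on 6B to 29.6% on 4D, and the share higher in leaf from 21.7% on 1B to 24.7% on 4D.

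The most abundant called transcripts came from genes that the files used here do not pair with a name. In grain these were TraesCS1D02G034800, with 11000 ± 504 TPM (SD, n = 3) against 19.5 ± 18.4 in leaf, and TraesCS1B02G042200, with 8743 ± 190 against 243 ± 98.1. In leaf they were TraesCS4B02G140300, with 5604 ± 1048 TPM against 61.5 ± 15.8 in grain, and TraesCS4D02G135000, with 4648 ± 1093 against 37.2 ± 6.46. Among called genes at or above an average of 10 CPM, the 2 greatest fitted differences towards grain belonged to genes of chromosomes 5B and 2D, at 2264 and 4196 TPM in grain with no read in leaf, at least 64298-fold and 47225-fold higher against a floor of 3 counts a library. The 2 greatest towards leaf belonged to genes of 6A and 2B, at 722 and 197 TPM in leaf with no read in grain, at least 21532-fold and 16974-fold lower there.

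Of the 262 genes on the study's lists, 241 passed the filter, 91 of them were higher in grain, 62 were higher in leaf and 88 were not called, where 27.2% and 23.2% of all tested genes were higher in grain and in leaf. The candidate TFs, proteases, transporters and most of the named starch genes were listed by the study for a difference between E82 and WT in the same libraries, and are not a random sample of such genes. The known TFs came from earlier literature and Glo3 from the qPCR primers. The unnamed starch genes, trehalose phosphate synthases, aminoacyl-tRNA ligases, transaminases, RNA silencing genes and genes of branched-chain amino acid synthesis came from terms enriched in a published grain co-expression module.

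**Figure D2:**
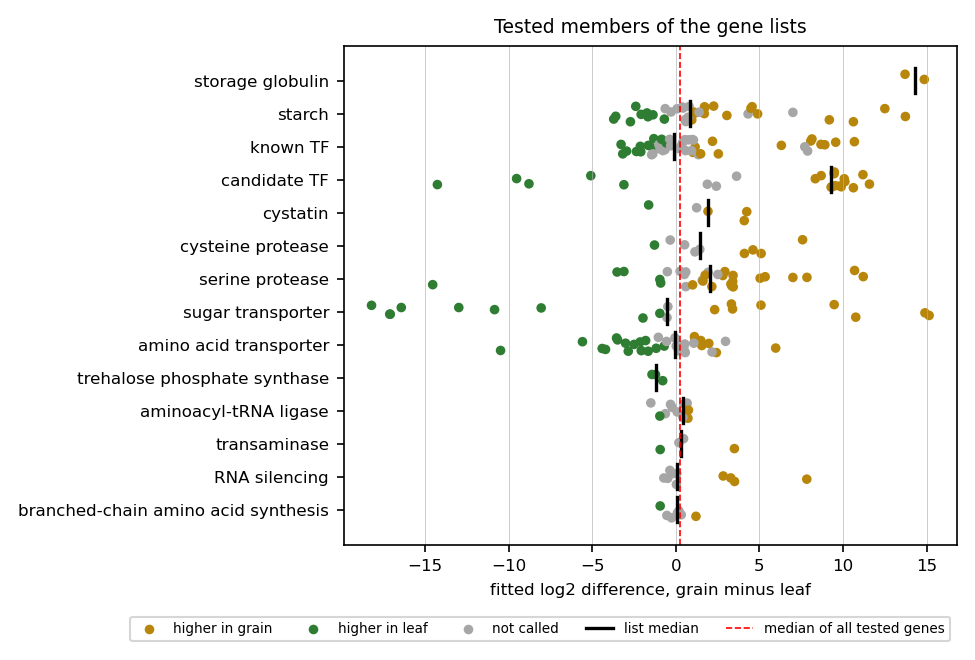
Fitted log2 difference (grain minus leaf) of each tested member of the 14 gene lists, 1 point a gene, with the list median as a black bar and the median of all tested genes, 0.24, as a dashed line. Candidate TFs lie mostly far to the grain side (median 9.30), sugar transporters spread from far on the leaf side to far on the grain side, and the medians of RNA silencing (0.04) and branched-chain amino acid genes (0.09) lie near that of all genes; values of genes with no read in one tissue depend on the prior count.

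The storage globulin Glo3 was the most abundant of the listed genes in grain. TraesCS4A02G296100 stood at 1920, 2081 and 2156 TPM in the 3 grain libraries and at 0.0378, 0.317 and 0 TPM in leaf, a log2FC of 13.71 (SE 1.11, adjusted p = 3.2e-05). The other gene, TraesCS4A02G296000, stood at 1030, 887 and 964 TPM in grain and had reads in 1 leaf library only, with a log2FC of 14.86 (SE 0.853, adjusted p = 7.65e-06). The grain libraries varied little around these levels, and the leaf reads numbered at most 39 in a library.

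Genes of starch metabolism divided by isoform between the tissues. Starch is built from ADP-glucose, made by ADP-glucose pyrophosphorylase (AGPase), which starch synthases join into chains, branching enzymes branch and debranching enzymes trim; the grain stores it, and the leaf makes it by day and breaks it down at night. Of 42 listed genes 36 were tested, 15 were higher in grain, 9 were higher in leaf and 12 were not called. Of all tested genes 27.2% were higher in grain and 23.2% in leaf, and the list's share higher in leaf was close to the latter. Its median log2FC was 0.87 against 0.24 over all genes.

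Granule-bound starch synthase, which makes amylose, showed the division most sharply. GBSSI, the isoform of storage tissues, is on the list with 3 genes. TraesCS4A02G418200 stood at 15.4, 12.3 and 15.9 TPM in grain and had no read in leaf, at least 546-fold higher in grain when leaf is set to a floor of 3 counts a library. The waxy gene of 7D (TraesCS7D02G064300) stood at 6.88, 6.3 and 6.85 TPM and was at least 232-fold higher by the same measure, and that of 7A (TraesCS7A02G070100) at 5.27, 8.16 and 6.68 TPM, with 2, 1 and 0 counts in leaf. All 3 were called higher in grain, but those of 4A and 7D could pass the filter only through grain. GBSSII, the isoform of tissues with transient starch, ran the other way. It stood at 1.59, 0.678 and 2.18 TPM in grain and at 10.4, 20.9 and 13.6 TPM in leaf (log2FC -3.72, SE 0.454, adjusted p = 0.00027), with no overlap between the tissues.

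The enzymes at the entry to the pathway differed in the same manner. Both genes of sucrose synthase (SUSase), which cleaves sucrose in sink tissue, were higher in grain. The 7D gene stood at 80.8, 87.4 and 74.1 TPM in grain and at 17.5, 23.4 and 23.3 TPM in leaf (log2FC 1.71, SE 0.177, adjusted p = 0.000114), and the 7B gene at 29.7 ± 3.32 TPM in grain and 0.89 ± 0.136 TPM in leaf (log2FC 4.56, SE 0.201, adjusted p = 4.73e-06). Sucrose phosphate synthase (SPS, TraesCS4B02G091100), which makes sucrose in source leaves, stood at 4.74, 6.73 and 9.61 TPM in grain and at 64, 59.7 and 71 TPM in leaf (log2FC -3.60, SE 0.305, adjusted p = 4e-05).

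Among 6 AGPase genes, those of chromosome group 1 were higher in grain. The large subunit genes APL3/AGPL1 of 1B and 1D had log2FC of 3.05 (SE 0.398) and 2.26 (SE 0.331), and the AGPase gene of 1A 1.74 (SE 0.352), with grain libraries between 19.5 and 45.7 TPM and leaf libraries between 1.65 and 9.93 TPM. The 3 genes of chromosome group 7 were close to even. The small subunit gene APS1/AGPS1/Bt2 of 7A was called higher in leaf (log2FC -0.69, SE 0.212, adjusted p = 0.0262), but with library totals alone its log2FC was -0.08 and the call was lost, as it was in 4 of 6 cases when single libraries were left out. Those of 7B and 7D had log2FC of 0.43 and 0.39 and were not called.

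Soluble starch synthases lengthen the chains of amylopectin. SSI of 7B stood at 7.18, 8.68 and 10.5 TPM in grain and at 34.1, 35.1 and 36.1 TPM in leaf (log2FC -2.40, SE 0.21, adjusted p = 4.69e-05). The starch synthase genes of 7A (TraesCS7A02G120300) and 7D (TraesCS7D02G117800) were also higher in leaf, with log2FC of -2.08 (SE 0.201) and -1.73 (SE 0.164). SSIIa/SSII-3, typical of endosperm, was low. Its 7D gene stood at 1.47, 1.7 and 0.763 TPM in grain with no read in leaf, at least 63.2-fold higher, and its 7B gene at 1.31, 0.69 and 0.556 TPM against at most 0.0475 TPM (log2FC 4.49, SE 1.17, adjusted p = 0.0131). Of the 3 SSIIIa/SSIII-2 genes only that of 1D was called, at 0.77, 0.818 and 0.79 TPM in grain against 0.28, 0.369 and 0.158 TPM in leaf, and leaving out single libraries lost this call in 5 of 6 cases.

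Branching and debranching genes were low in both tissues, except for the isoamylase of 7B in leaf. Of 9 listed branching enzyme genes 4 did not pass the filter and only GBE1 of 7A was called, at 4.56, 5.08 and 4.6 TPM in grain and 1.42, 0.782 and 1.1 TPM in leaf (log2FC 1.70, SE 0.313, adjusted p = 0.00245). GBE1/BEIIb/Ae of 2A, the branching enzyme of endosperm amylopectin, stood at 0.567, 0.209 and 0.114 TPM in grain and overlapped with leaf. The isoamylase genes of group 7, which trim branches, went different ways. That of 7A was higher in grain (log2FC 1.08, SE 0.244) and that of 7B (TraesCS7B02G139700) was higher in leaf, at 11.1, 16.1 and 10.1 TPM against 3.42, 1.64 and 2.44 TPM (log2FC -2.72, SE 0.304, adjusted p = 0.000169). ISA3, an isoamylase of starch breakdown, was called higher in grain (log2FC 0.95, SE 0.319), a call lost in 5 of 6 cases when single libraries were left out. Starch phosphorylase was higher in leaf for the genes of 5A and 5D, with log2FC of -1.37 (SE 0.416) and -1.67 (SE 0.375). The call of the 5A gene was lost with library totals alone (log2FC -0.75) and in 4 of 6 cases when single libraries were left out.

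**Figure D3:**
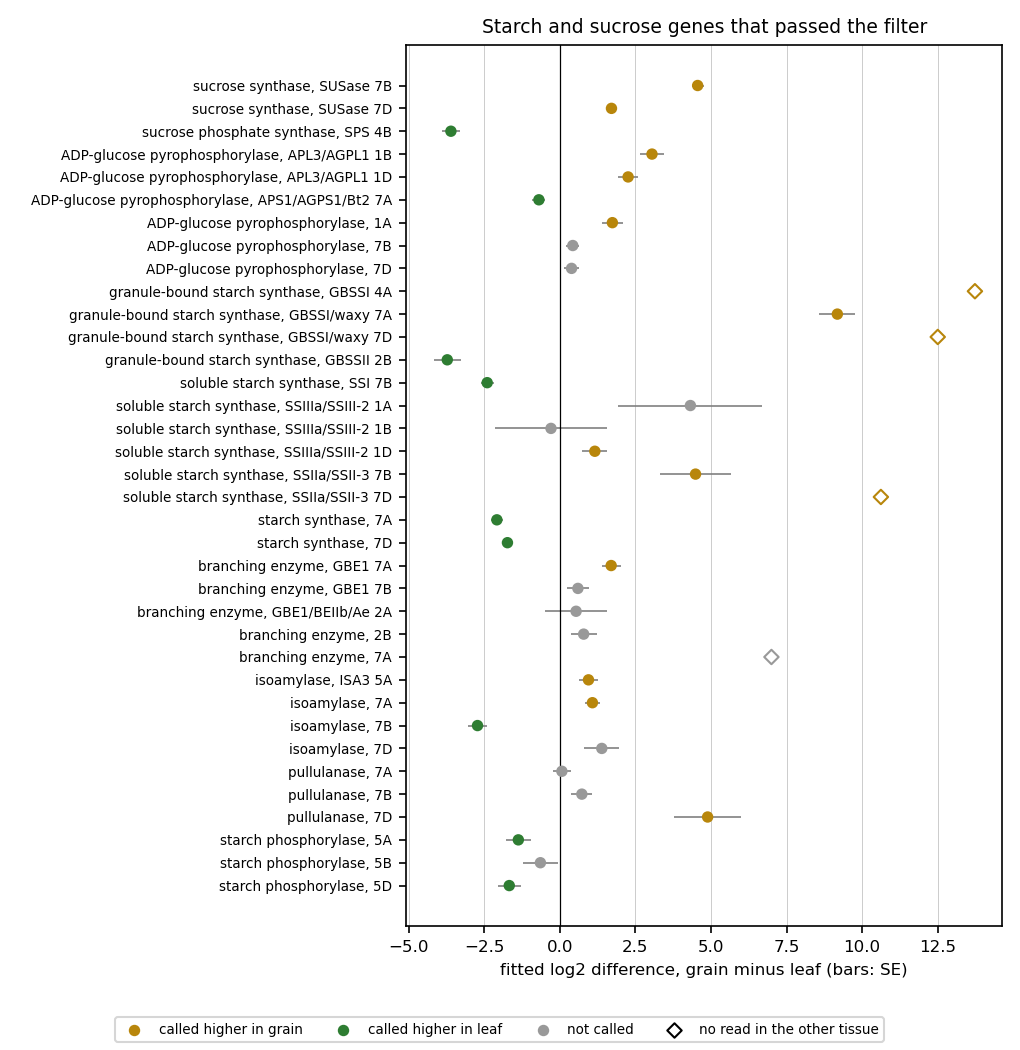
Fitted log2 difference (grain minus leaf) with its SE for the 36 tested starch and sucrose genes, ordered by step of the pathway and labelled by chromosome; open diamonds have no read in leaf and their value depends on the prior count. SUSase, GBSSI and the AGPase genes of group 1 lie on the grain side, and SPS (-3.60), GBSSII (-3.72), SSI (-2.40) and the phosphorylases on the leaf side.

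Sugar transporters separated by subfamily. Of 19 genes, all tested, 8 were higher in grain, 9 were higher in leaf and 2 were not called. Of all tested genes 27.2% were higher in grain and 23.2% in leaf, and the median log2FC was -0.53 against 0.24. The members differ in place and substrate: SWEET proteins let sugars leave cells, SUT1 symporters take sucrose up, and cell wall invertase (TaCWIN) splits sucrose outside the cell.

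All 7 TaSWEET13 genes, whose relatives in maize leaves export sucrose for phloem loading, were higher in leaf. TaSWEET13e of 6A was the most abundant, at 338, 928 and 621 TPM in leaf and 0.278, 6.48 and 2.25 TPM in grain (log2FC -8.06, SE 1.12, adjusted p = 0.000545). TaSWEET13f of 6D stood at 250, 685 and 465 TPM in leaf and had no read in grain, at least 12756-fold lower there against a floor of 3 counts a library. TaSWEET13b, 13d, 13h and 13i also had no read in grain, with leaf means of 188, 12.3, 138 and 271 TPM and bounds of at least 5856-fold, 342-fold, 3710-fold and 5983-fold. Like TaSWEET13f, they could pass the filter only through leaf, so that their side is not read as a result. TaSWEET13g stood at 228, 612 and 374 TPM in leaf and at 0, 0.338 and 0.542 TPM in grain (log2FC -10.85, SE 1.02, adjusted p = 6.87e-05). In each of these genes leaf replicate 2 was the highest and leaf replicate 1 the lowest, by more than 2-fold, and no leaf library overlapped with grain. Several of the genes carry consecutive identifiers on 6B and 6D, and reads of near-identical copies may be shared out between them in pseudoalignment, so that the division within the family is less certain than its sum.

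TaSWEET15, TaSWEET4 and TaCWIN had the opposite pattern. TaSWEET15, whose relative in rice takes part in seed filling, stood at 52.1, 58.6 and 84.3 TPM (15a, 7D) and 52.1, 41.5 and 60.1 TPM (15c, 7B) in grain with no read in leaf, at least 1458-fold and 1227-fold higher. TaSWEET15a and 15c could pass the filter only through grain, so that their side is not read as a result. TaSWEET15b of 7A stood at 34.7 ± 3.71 TPM in grain and 0.789 ± 0.887 TPM in leaf (log2FC 5.09, SE 0.754, adjusted p = 0.000775). TaSWEET4a of 6A, related to hexose exporters of seed filling in maize and rice, was the most abundant sugar transporter of the grain, at 206, 242 and 285 TPM against 15.1, 24.6 and 13.7 TPM in leaf (log2FC 3.39, SE 0.275, adjusted p = 3.22e-05). TaSWEET4b of 6B stood at 84.4 ± 19 TPM against 13.1 ± 6.34 TPM (log2FC 2.32, SE 0.349). TaCWIN of 2B stood at 47.4, 111 and 76.8 TPM in grain and at most 0.0978 TPM in leaf (log2FC 10.76, SE 0.913, adjusted p = 4.02e-05), and TaCWIN of 2D had a log2FC of 9.47 (SE 0.958). TaSWEET1a1-3B was higher in grain (log2FC 3.32, SE 0.565) and TaSWEET6b17-7D was higher in leaf (log2FC -1.97, SE 0.252).

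The sucrose symporter SUT1 was abundant in both tissues. SUT1A stood at 83.2, 83.5 and 104 TPM in grain and 70.5, 148 and 80.9 TPM in leaf, and SUT1C at a similar level, with overlap between the tissues in both. Neither was called, with log2FC of -0.53 (SE 0.273, adjusted p = 0.139) and -0.48 (SE 0.335, adjusted p = 0.266). SUT1D was called higher in leaf (log2FC -0.96, SE 0.251, adjusted p = 0.013), a call that was lost with library totals alone (log2FC -0.37). As for TaSWEET13, leaf replicate 2 was the highest of the leaf libraries for all 3 genes.

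**Figure D4:**
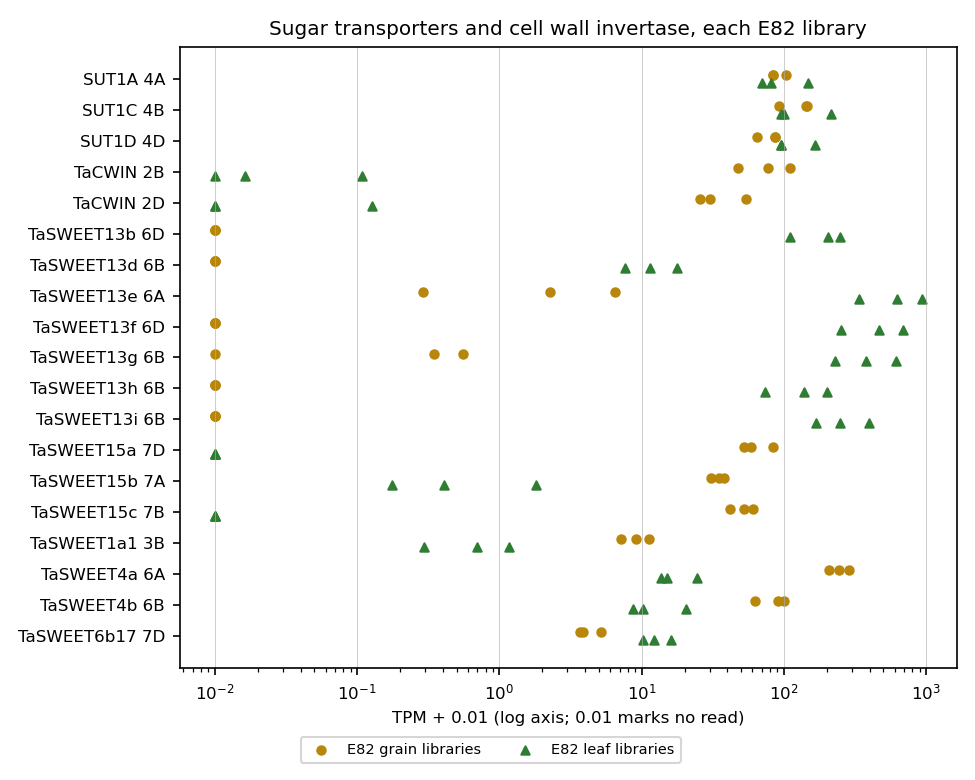
TPM + 0.01 (log axis) of the 19 sugar transporter and cell wall invertase genes in each E82 library, circles for the 3 grain and triangles for the 3 leaf libraries, labelled by chromosome. TaSWEET13 genes are found in leaf and are near or at 0 in grain, TaSWEET15 and TaCWIN show the reverse, and the 3 SUT1 genes overlap or nearly overlap around 100 TPM.

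Amino acid transporters were called in both directions. Of 36 listed genes 35 were tested, 15 were higher in leaf, 7 were higher in grain and 13 were not called. Of all tested genes 23.2% were higher in leaf and 27.2% in grain. The list's median log2FC of -0.06 lay a little below that of all genes. All were at moderate or low level, with no library above 26.9 TPM for any of them.

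The amino acid permeases (AAP), which take up amino acids into cells, divided by gene. AAP9 was higher in leaf for all 3 homeologs, with log2FC of -5.59 (SE 1.43), -4.21 (SE 0.911) and -4.41 (SE 0.629) for 3A, 3B and 3D. AAP15 was higher in leaf on 5B (log2FC -3.49, SE 0.664) and on the unplaced copy (log2FC -2.85, SE 0.879), the latter with an adjusted p of 0.0271 that became 0.0529 with library totals alone, 0.0734 without grain replicate 1 and 0.0792 without leaf replicate 2. AAP12 was higher in grain on 4A (log2FC 2.42, SE 0.389) and 4B (log2FC 1.49, SE 0.428), although the 4B gene, at 9.87, 24.8 and 21.1 TPM in grain and 3.02, 7.73 and 4.65 TPM in leaf, had separate TPM ranges but overlapped in TMM-scaled CPM. AAP22 of 7A stood at 10.5, 17.4 and 12.3 TPM in grain and at 0.0599, 0.439 and 0 TPM in leaf (log2FC 5.97, SE 0.975, adjusted p = 0.0013). AAP1 of 1D (log2FC 1.14, SE 0.341) and AAP17 of 6D (log2FC 1.55, SE 0.38) were higher in grain as well. The calls of AAP12-4B and AAP1 were each lost in 4 of 6 cases when single libraries were left out.

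The homeologs of AAP14 did not share a direction. AAP14-5A stood at 23.8, 25.6 and 19.3 TPM in grain and 5.91, 10.7 and 7.67 TPM in leaf (log2FC 1.11, SE 0.234, adjusted p = 0.00481). AAP14-5B stood at 3.79, 10.5 and 4.9 TPM in grain and 17.9, 17.1 and 16.3 TPM in leaf (log2FC -1.81, SE 0.382, adjusted p = 0.00487). AAP14-5D was called higher in leaf too (log2FC -1.18, SE 0.396, adjusted p = 0.0374), but lost its call with library totals alone (log2FC -0.55) and in 4 of 6 cases when single libraries were left out.

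Proline transporters (ProT) were higher in leaf in 4 of 5 genes, beside 23.2% of all tested genes. ProT3 of 4A stood at 1.4, 1.76 and 1.58 TPM in grain and 10.2, 17.3 and 15.1 TPM in leaf (log2FC -3.55, SE 0.267, adjusted p = 2.21e-05), ProT1 of 2B had a log2FC of -2.14 (SE 0.188), and ProT2 of 3D and 3A -3.01 (SE 0.377) and -2.50 (SE 0.612), the last with an adjusted p of 0.0565 without leaf replicate 2. ProT2 of 3B, at 1.35, 0.439 and 0.52 TPM in grain and 1.69, 0.841 and 1.02 TPM in leaf, was not called. TTP3 of 4A was higher in leaf, at 26.9, 19.7 and 25.5 TPM against 9.28, 5.98 and 7.56 TPM (log2FC -2.07, SE 0.24). AUX3 of 3A, of the family that imports auxin, was higher in leaf as well (log2FC -1.66, SE 0.359). ATLb2 of 2A stood at 2.37, 1.62 and 1.16 TPM in leaf with no read in grain, at least 60.4-fold lower there. The 3 lysine and histidine transporters (LHT) were not called, with means of at most 2.51 TPM.

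**Figure D5:**
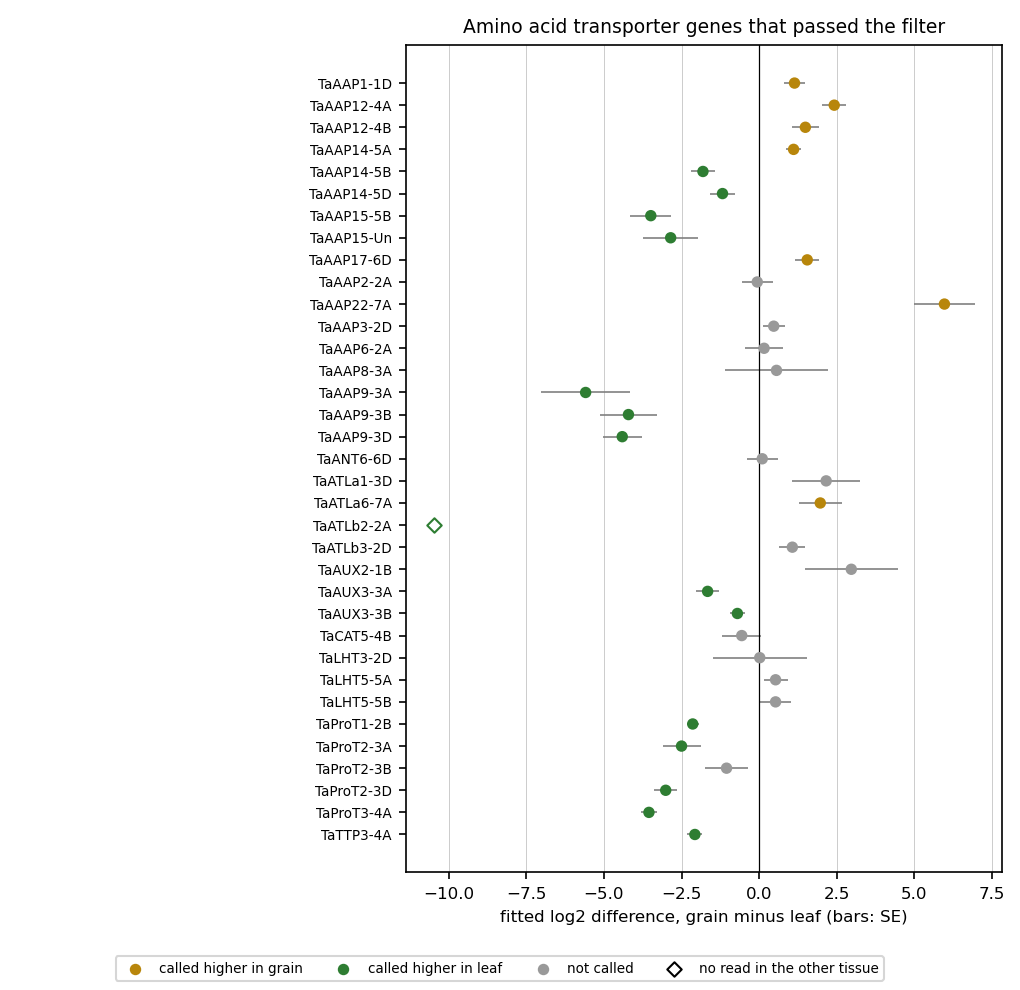
Fitted log2 difference (grain minus leaf) with its SE for the 35 tested amino acid transporter genes, labelled by chromosome; the open diamond, ATLb2-2A, has no read in grain and its value depends on the prior count. AAP9, AAP15 and ProT genes lie on the leaf side, AAP12, AAP17 and AAP22 on the grain side, and the 3 AAP14 homeologs on both.

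Of 49 TFs previously tied to storage protein or starch genes 48 were tested, 12 were higher in grain, 12 were higher in leaf and 24 were not called. These shares were close to the 27.2% and 23.2% of all tested genes, and the median log2FC was -0.08 against 0.24. With library totals alone 20 were higher in grain. The seed regulator TaFUSCA3 gave the clearest grain pattern. Its 3A gene stood at 23.3, 10.2 and 18.9 TPM in grain and 0.145, 0 and 0 TPM in leaf (log2FC 8.07, SE 0.953, adjusted p = 0.000226), and the 3B and 3D genes had log2FC of 6.31 (SE 0.912) and 8.14 (SE 0.939). TabZIP121 of 4D stood at 5.55, 12.5 and 8.53 TPM in grain against at most 0.0439 TPM in leaf (log2FC 8.68, SE 0.932), and TabZIP229.1 of 7B at 3.67, 2.54 and 1.82 TPM in grain with no read in leaf, at least 65.7-fold higher.

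TaPBF, a DOF factor that binds the prolamin box of storage protein promoters, was at the limit of detection. Its 5B and 5D genes had reads in grain replicate 3 only, at 2.01 and 1.75 TPM, and the 5A gene did not pass the filter. None had a read in leaf, and neither tested gene was called. TaSHP, a bZIP factor acting on storage protein genes, was higher in grain on 5D (log2FC 2.19, SE 0.387) and 5B (log2FC 1.02, SE 0.266) and not called on 5A, and the call on 5B was lost without leaf replicate 3 (adjusted p = 0.0504).

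MCB1 was the most abundant of the known TFs in both tissues. Its 1A gene stood at 41.8, 64.1 and 46.2 TPM in grain and 39.3, 65.3 and 80.2 TPM in leaf and was not called (log2FC -0.66, SE 0.284, adjusted p = 0.0844), and its 1D gene was not called either. The 1B gene was higher in leaf, at 36.5, 49.4 and 54.3 TPM against 19, 23.9 and 18.1 TPM (log2FC -1.58, SE 0.213, adjusted p = 0.000459). MYBS3, a MYB factor of sugar signalling in rice, was higher in leaf for its 3 homeologs, with log2FC of -1.32 (SE 0.198), -1.65 (SE 0.193) and -1.23 (SE 0.236) for 1A, 1D and 1B, of which the last had an adjusted p of 0.0562 with library totals alone. The largest fall of a bZIP gene was that of TabZIP217.1 of 7D, at 6.01, 10.4 and 9.94 TPM in leaf and 0.817, 2.59 and 0.0435 TPM in grain (log2FC -3.28, SE 0.98, adjusted p = 0.0236), a call that leaving out single libraries ended in 3 of 6 cases.

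The tested candidate TFs of the study's network were mostly higher in grain, at low level there. Of 30, 22 were tested, 14 were higher in grain, 5 were higher in leaf and 3 were not called, beside 27.2% of all tested genes higher in grain and 23.2% in leaf. The median log2FC was 9.30 against 0.24 over all genes, and 4.65 when the 15 genes with no read in one tissue are set to their bounds. All 10 tested genes of the NAC-rich community 5 and all 4 of community 3 had no read in leaf. Such genes could pass the filter only through their grain counts. The study also listed them for a difference in grain, so that neither their side nor the list median is read as a result. The MYB-related gene AT2G38090 was the most abundant of these, at 8.08, 7.85 and 11.2 TPM in grain for the 1A gene, at least 122-fold higher, with its 1B and 1D homeologs at 6.13 ± 1.65 and 3.23 ± 1.57 TPM. The NF-YC2 genes of 7A, 7B and 7D, subunits of the NF-Y factor, stood between 0.963 and 3.67 TPM in grain, and ANAC087, NAC038 and NAC100 genes between 0.343 and 3.19 TPM. TaNAC019-B, NAC057, RGA1, NFYB9, the DREB gene and the PLATZ gene of 3D had no read in any of the 6 libraries, and the 3 TaGL9 homeologs were not called, at no more than 0.634 TPM.

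Communities 1 and 2 were those of the leaf. NF-YC4 of 4D stood at 107, 95.4 and 129 TPM in leaf and at 0, 0 and 0.663 TPM in grain (log2FC -9.53, SE 1.2, adjusted p = 0.000324). GLK1, a regulator of chloroplast development, stood at 33.3, 31.7 and 50.6 TPM in leaf for the 7D gene (log2FC -8.79, SE 1.04) and at 21.2, 14.6 and 25.7 TPM for the 7A gene, which had no read in grain and was at least 831-fold lower there. MYB59 of 3D stood at 31.1, 46 and 42 TPM in leaf and 6.41, 7.86 and 3.8 TPM in grain (log2FC -3.11, SE 0.296), and MYB59 of 3A was higher in leaf too (log2FC -5.09, SE 0.929).

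Proteases and their inhibitors, which release and hold back nitrogen in senescing leaves and also act in the seed, were called in both directions. The study listed them for a difference between the lines in leaf, so that the counts and medians of these lists are not read as a result. Among 5 cystatins, inhibitors of cysteine proteases, 3 were higher in grain and 1 in leaf, beside 27.2% and 23.2% of all tested genes. Icy8 of 2A stood at 89.2, 74.5 and 102 TPM in grain and 3.16, 4.41 and 3.22 TPM in leaf (log2FC 4.24, SE 0.232, adjusted p = 6.72e-06), with Icy8 of 2D close to it (log2FC 4.09, SE 0.233). Icy1-2 was divided. Its 1B gene stood at 174, 149 and 118 TPM in grain and 25.9, 39.5 and 23.8 TPM in leaf (log2FC 1.92, SE 0.239, adjusted p = 0.000302), and its 1D gene at 32.9, 28.6 and 44.7 TPM in grain and 81.7, 92.7 and 77.5 TPM in leaf (log2FC -1.63, SE 0.223, adjusted p = 0.000505).

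Of 9 papain-like cysteine proteases 4 were higher in grain and 1 in leaf, beside 27.2% and 23.2% of all tested genes. The ortholog of barley HvPap1 was the most abundant, at 80.9 ± 12.2 TPM in grain and 149 ± 12.8 TPM in leaf, with no overlap (log2FC -1.28, SE 0.192, adjusted p = 0.000838). The ortholog of HvPap14 stood at 27.4, 22.4 and 39.9 TPM in grain and at most 0.21 TPM in leaf (log2FC 7.58, SE 0.763, adjusted p = 9.58e-05). RD19D (log2FC 5.10, SE 0.435), Psy1-D1 (log2FC 4.61, SE 0.523) and Triticain beta (log2FC 4.10, SE 0.562) were higher in grain as well. Summed over the cystatins and cysteine proteases, which served as the list for senescing leaf, the libraries held between 531 and 565 TPM in grain and between 287 and 327 TPM in leaf.

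Of 31 serine-type proteases 30 were tested, 17 were higher in grain and 5 in leaf, beside 27.2% and 23.2% of all tested genes. Their median log2FC was 2.04 against 0.24, which is not read as a result because the list was chosen on differences between the lines in leaf. The most abundant of them was a gene of the leaf, TraesCS6A02G220500, at 207, 161 and 179 TPM against 26.9, 26.6 and 30.4 TPM in grain (log2FC -3.11, SE 0.205, adjusted p = 1.26e-05). TraesCS6A02G161600 was found in leaf at 15.1, 18.3 and 19.4 TPM and had no read in grain, at least 1009-fold lower. In grain the leading member was TraesCS1A02G187300, at 27.2, 27.5 and 33.2 TPM against 0.0947, 0.0504 and 0.141 TPM in leaf (log2FC 7.84, SE 0.39, adjusted p = 5.29e-06), and TraesCS4B02G352100 stood at 1.73, 3.52 and 1.06 TPM with no read in leaf, at least 94.8-fold higher. Of the 5 leaf calls, those of the genes of 1A and 1B with log2FC of -0.96 and -0.91 were lost with library totals alone.

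The remaining lists held genes of metabolism and RNA handling. Their counts stand beside 27.2% of all tested genes higher in grain and 23.2% higher in leaf. All 3 trehalose phosphate synthases, which make a sugar signal, were called higher in leaf, with log2FC of -1.43 (SE 0.236), -0.79 (SE 0.24) and -1.22 (SE 0.359) on 1A, 1B and 1D, but only the first was still called with library totals alone and none when all 12 libraries shared one spread. Of 13 aminoacyl-tRNA ligases 3 were higher in grain and 1 in leaf, with log2FC between -0.96 and 0.75, and the 3 grain calls were lost in 4 or 5 of 6 cases when single libraries were left out. Of 7 genes of branched-chain amino acid synthesis 1 was higher in each tissue; the most abundant, TraesCS1D02G419800, stood at 56.6, 73.4 and 65 TPM in grain and 57.3, 71.5 and 48.6 TPM in leaf and was not called.

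Among transaminases, which move amino groups between amino acids, 4 of 6 were tested and 1 was higher in each tissue. TraesCS3A02G305400 stood at 99.5, 79.8 and 65.8 TPM in grain and 4.35, 7.15 and 4.98 TPM in leaf (log2FC 3.50, SE 0.243, adjusted p = 1.57e-05). Of 13 genes of RNA silencing, the process used against the gliadins, 10 were tested, 4 were higher in grain and 6 were not called by the quasi-likelihood test, and DESeq2 called 2 higher in leaf. TraesCS1A02G445500 stood at 13.5, 11.6 and 15.8 TPM in grain and 1.59, 1.57 and 1.18 TPM in leaf (log2FC 2.83, SE 0.23, adjusted p = 3.26e-05). The calls of TraesCS2A02G252400 and TraesCS1A02G160900, the latter at most 0.209 TPM in grain, were lost in 5 and 4 of 6 cases when single libraries were left out. The 3 members TraesCS4A02G281500, TraesCS4B02G031500 and TraesCS4D02G029200 were between 8.85 and 17.4 TPM in every library and were not called.

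The WT leaf libraries were less alike, with correlations from 0.81 to 0.89 against 0.98 to 0.99 within E82 leaf. Whether the tissues differed in E82 as they did in the WT was tested over all 12 libraries, by the interaction term between line and tissue. It was called for 2056 of 70086 genes (2.93%), of which 1803 had a lower grain minus leaf difference in E82 and 253 a higher one. With the replicate number as a block it was called for 0 genes by the same test, with 5689 at an unadjusted p under 0.05. The labels do not say whether a number marks the same plant in both tissues. Of the 262 list members 26 (9.92%) were called. Most of the lists were chosen for differences between the lines in these libraries, so that nothing is read from their share. In 18 of the 26 no WT leaf library held a read, whereas each of the 26 had reads in E82 leaf, and the WT leaf libraries detected fewer genes, between 31558 and 45655 against 55916 to 59840 in E82 leaf. They were also read less deeply, with 27172814 to 41002622 estimated counts against 55529286 to 59921014 in E82 leaf. The part of this in the interaction was not tested, and leaving out any single library but E82 leaf replicate 2 or WT leaf replicate 3 moved the count by more than 1.5 times, to between 549 (without E82 grain replicate 2) and 6547 (without WT leaf replicate 1).

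Of the starch genes 4 were called. SSI of 7B had means of 24.9 and 23.2 TPM in WT grain and leaf and of 8.79 and 35.1 TPM in E82 grain and leaf (interaction -2.76, SE 0.627, adjusted p = 0.0394). The isoamylase of 7B had 4.99 and 6.72 TPM in the WT and 2.5 and 12.4 TPM in E82 (interaction -2.55, SE 0.604, adjusted p = 0.0472). GBE1 of 7B and GBE1/BEIIb/Ae of 2A had interactions of -12.75 (SE 1.81, adjusted p = 0.0103) and -13.43 (SE 2.12, adjusted p = 0.0139). Neither had a read in WT leaf, so that these are no measure of size. ProT2 of 3D and 3B had WT leaf means of 82.3 and 26.3 TPM and E82 leaf means of 5.05 and 1.19 TPM, with interactions of 6.21 (SE 0.971, adjusted p = 0.00974) and 12.71 (SE 1.19, adjusted p = 0.00597), the latter against no read in WT grain and therefore no measure of size. TaSWEET13e had means of 3 and 629 TPM in E82 grain and leaf and of 1.72 and 5530 TPM in WT grain and leaf. None of the TaSWEET13, TaSWEET15, SUT1, TaCWIN, Glo3 or TaFUSCA3 genes was called in this test, which does not show that their tissue differences were alike in the lines.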

How the data were processed

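Libraries were grouped by the line, tissue and replicate in their labels. Per the submitters' notes, Trimmomatic 0.36 was used for trimming and kallisto 0.44.0 for pseudoalignment, against IWGSC RefSeq v1.1. The deposited estimated counts per gene are not normalized and were rounded here. The deposited TPM per transcript were summed per gene; the listed transcripts hold 757995 to 802745 of each E82 library's TPM. Genes with a CPM sum above 1 were fitted with edgeR 4.0.16 (TMM, glmQLFit, glmQLFTest) in R 4.3.3 on the 6 E82 libraries, and on all 12 for the interaction. SE was taken as |log2FC| over the root of F. Where every library of a tissue had no read, the fold is a bound against the mean floor of 3 counts a library, which covers counting error only.

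Alternatives were DESeq2 1.42.0, the likelihood ratio test, RLE, library totals, 2 other filters, a spread shared by 12 libraries, limma 3.58.1 with TPM pseudocounts of 1 or 0.1 before log2, a replicate block, glmTreat and leaving out each library. The fits were tested on simulated data.

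The comparison and the lists were chosen with earlier results of these data known. From each list the highest level and the largest called difference in each tissue, with homeologs of the same name, were named by rule, as were the most abundant and most different genes overall. Other genes were chosen after their values were seen. Members absent from the reference tables carry only the role the study gives.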

Additional observations from a re-analysis of the deposited data

Results flagged for a closer look

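The difference between grain and leaf was unlike that of the WT in 2 of the genes named by rule, by edgeR's quasi-likelihood test of the interaction of line and tissue over 12 libraries. For GLK1 of 7A (TraesCS7A02G339800) the interaction was -9.63 on the log2 scale (SE 1.05, adjusted p = 0.00597). Its means were 0 TPM in E82 grain, 20.5 TPM in E82 leaf, 0.495 TPM in WT grain and 13 TPM in WT leaf, so that the size rests on a group without reads. For the serine-type protease TraesCS1A02G187300 the interaction was -7.04 (SE 0.998, adjusted p = 0.0102), with 29.3 TPM in E82 grain and 29.1 TPM in WT grain, 0.0954 TPM in E82 leaf and no read in WT leaf, so that here too the size rests on a group without reads.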

How the results depend on the processing

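Of the 153 list members called, between 114 and 153 kept their call and direction under each of the 17 alternatives, and 1, TabZIP117.1, changed direction, to a log2FC of 0.04 with library totals alone. Leaving out single libraries gave between 15077 and 17112 genes higher in grain and between 12433 and 15116 higher in leaf. With all 12 libraries sharing one spread 12227 were higher in grain and 7991 in leaf. The labels do not say whether same-numbered libraries came from the same plant. Their deviations correlated between -0.0038 and 0.0128, which cannot settle it with 3 libraries of each tissue. With the replicate number as a block 13925 and 12673 genes were called. The interaction was called for 6055 genes by DESeq2 and between 549 and 6547 when single libraries were left out. With the replicate number as a block it was called for 0 genes by edgeR's quasi-likelihood test, with 5689 at an unadjusted p under 0.05. The signs of 5 uncalled named genes turned. With library totals alone the log2FC was 0.08 for MCB1 of 1D, 0.31 for TraesCS7A02G304700, 0.25 for TraesCS4A02G281500 and 0.34 for TraesCS1D02G419800, and for the last 3 genes it was 0.06, 0.04 and 0.14 on log2(TPM + 1) and 0.06, 0.04 and 0.15 on log2(TPM + 0.1). For TraesCS4D02G029200 it ran from -0.12 to 0.18 when single libraries were left out, and was below 0 without grain replicate 1 and, at -0.04, without leaf replicate 3. The cause was not tested. After scaling, the floor of 3 counts was between 0.0524 and 0.0778 CPM in the grain libraries and between 0.0625 and 0.0675 CPM in the leaf libraries.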
